A study of Saccharomyces cerevisiae with 14 samples.

Results

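The protein genes of the cytosolic large ribosomal subunit of budding yeast (*Saccharomyces cerevisiae*) were followed through a change of nitrogen source. Members were chosen by symbol alone: RPL with 1 or 2 digits and, where present, the letter A or B, together with the stalk genes RPP0, RPP1A, RPP1B, RPP2A and RPP2B. The gene table lists 81 such genes. Of these, 75 had a listed probe set on the arrays, against 5449 genes of the species in all, and 6 had none. The symbols alone define the set, and the mitochondrial ribosomal proteins, whose symbols begin with MRPL, are not in it.

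The cells were the wild-type strain YSBN6, which grew exponentially on glucose and proline in a batch fermentor, and at time 0 a pulse of glutamine was given. All 14 arrays share this strain, medium and pulse, and the groups differ in their sampling time. The experiments BY003, BY008 and BY012, which the design text gives as biological replicates, each supplied an array 10 min before the pulse (-10 min) and at 7 and 24 min after it. BY008 alone also supplied arrays at 3, 10, 14, 56 and 120 min, and these single arrays carry no replicate error. No untreated culture was analysed here at the later times, so the pulse and the time passed in the fermentor cannot be told apart.

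Ribosomal proteins are among the most abundant gene products of a growing yeast cell, and their genes are transcribed together by a shared set of factors that includes Rap1, Fhl1 and Ifh1. The large subunit forms the peptide bond, holds the tunnel through which the new chain leaves, and carries the stalk that recruits the translation factors. Many of these proteins are encoded by a pair of nearly identical genes, A and B, left from an ancient duplication of the genome. Proline is a poor and glutamine a preferred nitrogen source for yeast, and ribosomal protein genes are known to be more active on rich than on poor nutrients.

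Deposited intensities were turned into log2 values without further scaling, so each value below is a log2 intensity of 1 probe set on 1 array, and each change is a difference of such values. Values of different probe sets have no common scale. Only differences of the same probe set, or changes of them, are compared, apart from descriptions of A against B and by starting value. The values describe equal amounts of labelled RNA, so more transcript per cell and a smaller pool of other RNA cannot be told apart. The array medians over all genes averaged 11.11 ± 0.07 for -10 min, 10.92 ± 0.03 for 7 min and 10.83 ± 0.04 for 24 min (SD over 3 arrays each). Rises of the members are therefore larger on a scale that sets these medians equal.

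The -10 min array of BY012 stood apart for these genes. All 75 members were lower on it than on both other -10 min arrays, with a median difference of -0.58 from their mean (from -2.57 for RPL41A to -0.13 for RPL26A). Of all genes 29.8% were below both, and the median gene was higher by 0.11. Each rise below is measured partly against that array, and for 52 of the 75 at 7 min and 32 at 24 min the change is more than 1.5 times larger with it than without it. The counts without it stand beside the main ones, as do the values of named members for which that difference is over 1.5 times. What set that array apart was not tested.

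**Figure D1:**
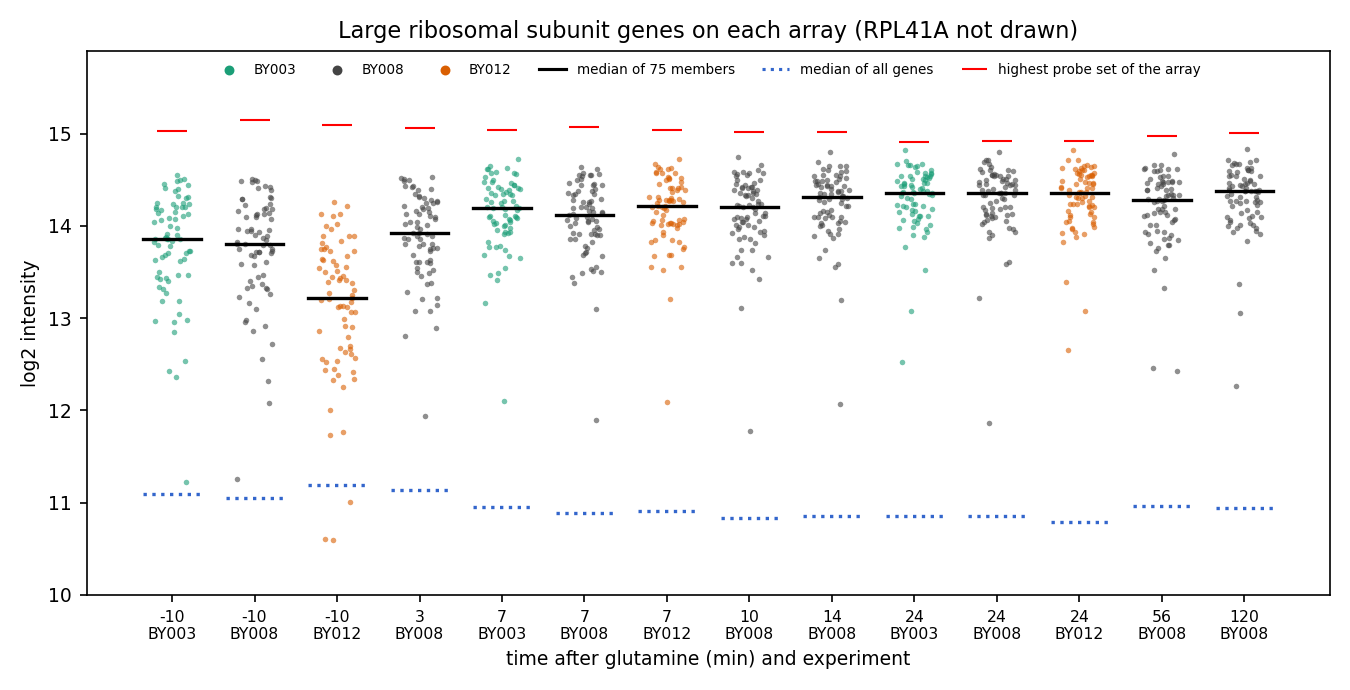
Log2 intensity of the 75 large subunit genes on each of the 14 arrays, 1 point per gene in order of time, coloured by experiment, with RPL41A (4.40 to 8.76) left out of the drawing. Black lines mark the median of the members, dotted lines that of all genes and red lines the highest probe set of the array. The member medians are 13.86, 13.81 and 13.22 at -10 min and lie between 14.12 and 14.36 at 7 and 24 min.

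At 7 min after glutamine, 39 of the 75 members rose and 0 fell, where 16.7% of all genes rose and 35.7% fell (limma, Benjamini-Hochberg adjusted p under 0.05). With array medians subtracted 65 members rose, and over all genes 1158 rose and 1320 fell, against 910 and 1947 without that scaling. The median member changed by 0.50, against -0.33 for all genes. The largest rises were those of RPL22B (2.13 ± 0.18, SE, n = 3 arrays per time), RPL13A (1.82 ± 0.33) and RPL9A (1.74 ± 0.44), followed by RPL12A (1.24 ± 0.21), RPL6B (1.08 ± 0.18), RPL17B (1.04 ± 0.29) and RPL8A (1.04 ± 0.25). For RPL9A and RPL17B these values were 1.09 and 0.64 without the -10 min array of BY012. Most members moved by less than 2-fold. For 71 members all 3 arrays at 7 min lay above all 3 at -10 min, which held for 19.5% of all genes. The other 4 were RPL15B, RPL31A, RPL39 and RPL41A.

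The experiments differed in the size of this shift. The median member changed by 0.27 in BY003, 0.26 in BY008 and 0.90 in BY012. Relative to the median of all genes in the same experiment, the values were 0.48, 0.57 and 1.35. Without the -10 min array of BY012 the median was 0.28, and 34 members rose, 33 of them among the 39. For 19 of the 39 the change was more than 1.5 times smaller without that array. Without BY003 only 9 rose, without BY012 20 and without BY008 28, while the median change was 0.59, 0.27 and 0.60 in these 3 cases. Leaving out BY003 thus ended most single calls at 7 min without lowering the median change. The 9 that were called in every alternative were RPL4B, RPL6B, RPL8A, RPL9A, RPL12A, RPL13A, RPL22B, RPL27B and RPL31B.

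At 24 min, 66 of the 75 members had risen and 0 had fallen, where 24.1% of all genes rose and 44.9% fell. With array medians subtracted 74 members rose, and over all genes 1738 rose and 1938 fell, against 1312 and 2444 without that scaling. The median member was higher by 0.67 than at -10 min, against -0.33 for all genes, and 73 members did not overlap between the times, compared with 26% of all genes. Without the -10 min array of BY012 the median was 0.43 and 63 members rose, while without BY003 35 did. The largest rises were those of RPL41A (2.44 ± 0.66, or 1.59 without that array), RPL9A (2.15 ± 0.44), RPL22B (2.10 ± 0.18), RPL13A (2.05 ± 0.33), RPL12A (1.52 ± 0.21) and RPL17B (1.50 ± 0.29). The probe set of RPL41A was dim, between 4.40 and 8.76, and lay below the median of all genes on every array. The 9 members that did not pass the test were RPL1B, RPL10, RPL11A, RPL14B, RPL15B, RPL28, RPL30, RPL31A and RPL40A. For RPL11A (adjusted p = 0.0502) and RPL31A (0.0504) the value lay just above the threshold.

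Between 7 and 24 min little more was detected at this number of arrays. The median member was higher by 0.17 at 24 min, 59 of 75 did not overlap between the times (28.1% of all genes), and 65 were higher in all 3 experiments. Only RPL19A passed the test (0.39 ± 0.13, adjusted p = 0.043, limma), and 0 fell, where 13.2% of all genes rose and 20.2% fell (718 and 1099 genes, or 1003 and 794 with quantile normalization). At an unadjusted p under 0.05 there were 2 members. With the experiment as a replicate block RPL41A passed as well, which makes 2. Without the -10 min array of BY012, which enters this comparison only through the pooled spread, 8 members rose: RPL4B, RPL9A, RPL17B, RPL19A, RPL23A, RPL34A, RPL38 and RPL41A.

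The member medians averaged 13.63 ± 0.36 for the -10 min arrays, 14.18 ± 0.05 for the 7 min arrays and 14.36 ± 0.003 for the 24 min arrays (SD, n = 3). The wider spread at -10 min came with the array of BY012, whose median was 13.22. The highest log2 value of any probe set in the table was 15.14.

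**Figure D2:**
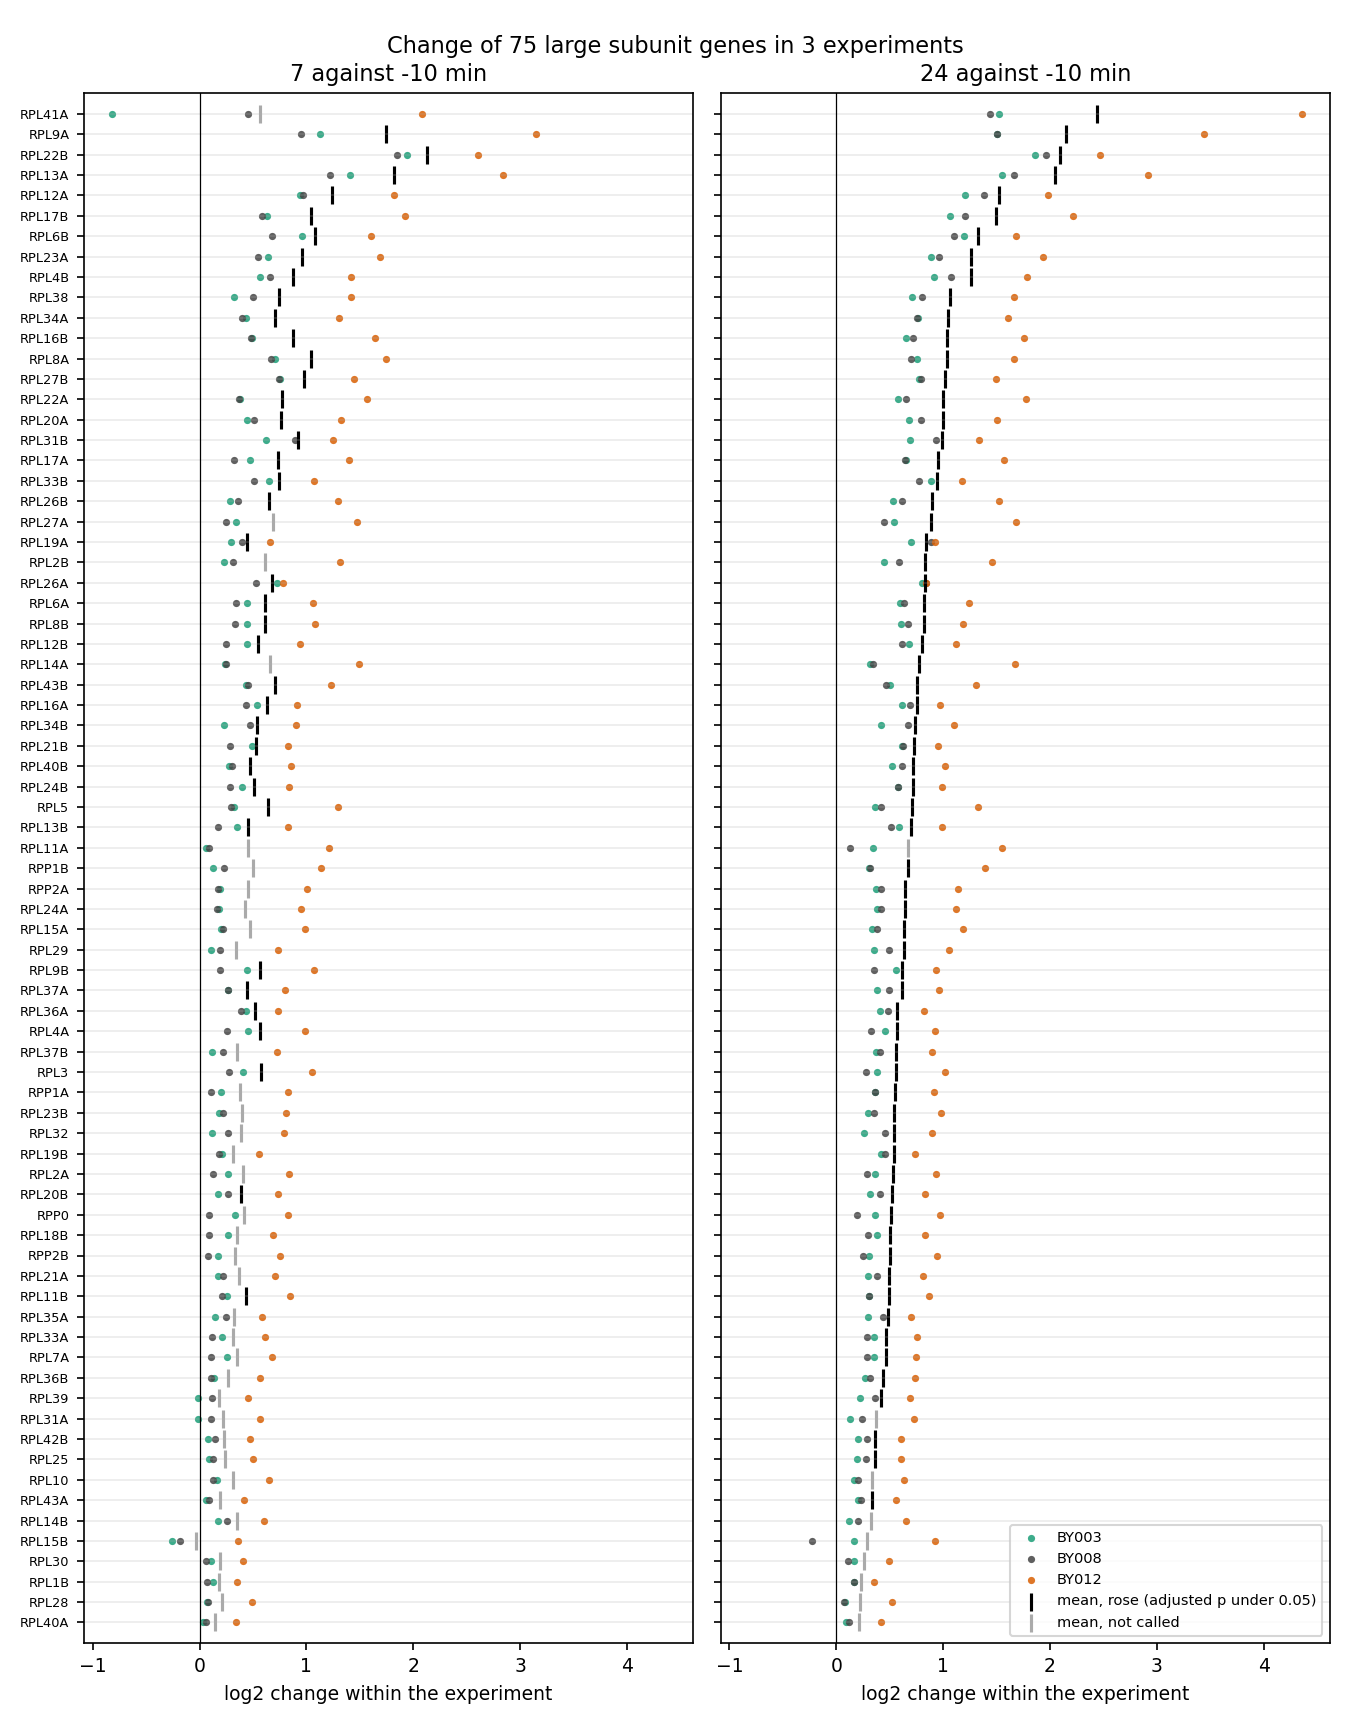
Log2 change of each member in each experiment (BY003, BY008, BY012) at 7 and at 24 min against the -10 min array of the same experiment, 1 row per gene, with the mean of the 3 as a black tick where the member rose and a grey one where it did not pass the test. The medians over members are 0.27, 0.26 and 0.90 at 7 min and 0.41, 0.45 and 0.99 at 24 min, and the points of BY012 lie to the right.

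The stalk is the flexible arm of the large subunit, in which RPP0 anchors pairs of the acidic proteins encoded by the RPP1 and RPP2 genes, and RPL12 sits at its base. Of the 7 stalk genes, 2 rose at 7 min (RPL12A and RPL12B) and all 7 at 24 min, with medians of 0.46 and 0.64. RPL12A stood at 13.78, 13.69 and 13.83 at 7 min in BY003, BY008 and BY012, against 12.85, 12.73 and 12.01 at -10 min. RPL12B had 14.12, 14.05 and 14.15 at 7 min, against 13.68, 13.81 and 13.21 at -10 min. Neither gene overlapped between the times, and at 24 min the changes were 1.52 ± 0.21 for RPL12A and 0.81 ± 0.16 for RPL12B. The 5 genes of the stalk proper changed less. RPP0 was at 14.47, 14.37 and 14.41 at 7 min, against 14.15, 14.29 and 13.58 at -10 min (0.41 ± 0.18, adjusted p = 0.0801, limma, or 0.20 without the -10 min array of BY012). At 24 min the changes of these 5 lay between 0.50 for RPP2B and 0.67 for RPP1B, or 0.31 and 0.36 without that array. The stalk median without the -10 min array of BY012 was 0.20 at 7 min and 0.36 at 24 min, and all 7 still rose at 24 min. Without BY003, 2 of the 7 rose at 24 min.

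RPL5 and RPL11 bind the smallest ribosomal RNA and enter the subunit together with it. RPL5 reached 14.53, 14.47 and 14.58 at 7 min, against 14.20, 14.18 and 13.28 at -10 min, a change of 0.64 ± 0.23 (adjusted p = 0.0412, limma). It did not overlap between the times, but the change was 0.33 without the -10 min array of BY012. RPL11B rose by 0.44 ± 0.16 at 7 min and 0.50 ± 0.16 at 24 min, or by 0.25 and 0.31 without that array, where the call at 7 min was lost. These values are from its brighter probe set, which may read several transcripts. Its probe set for 1 transcript rose by 0.58 ± 0.13 and 0.61 ± 0.13, or 0.49 and 0.52 without that array. RPL11A had 13.49, 13.56 and 13.55 at 7 min, against 13.43, 13.46 and 12.34 at -10 min (0.45 ± 0.27, adjusted p = 0.182, limma), and without that array its change was 0.09. Of these 3 genes, 2 passed the test at each time. Only 1 passed it at 7 min without the -10 min array of BY012, and without BY003 none of the 3 passed it at 7 or at 24 min, while at 24 min the unadjusted p was under 0.05 for all 3 with all arrays.

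RPL2, RPL3 and RPL10 reach towards the centre where the peptide bond is made, and RPL10 joins the subunit late, in the cytoplasm. Of their 4 measured genes, RPL3 rose at 7 min and RPL2A, RPL2B and RPL3 at 24 min. Without the -10 min array of BY012 the counts were 1 and 3, and without BY003 0 and 1. RPL3 was at 14.04, 14.18 and 13.44 at -10 min, at 14.45, 14.45 and 14.49 at 7 min and at 14.42, 14.45 and 14.46 at 24 min. Its change was 0.58 ± 0.18 at 7 min and 0.56 ± 0.18 at 24 min, or 0.35 and 0.34 without the -10 min array of BY012. RPL2B reached 14.30, 14.31 and 14.32 at 24 min, against 13.85, 13.72 and 12.86 at -10 min (0.83 ± 0.23, or 0.52 without the -10 min array of BY012). RPL10 did not pass the test. It had 14.66, 14.69 and 14.65 at 24 min, against 14.50, 14.49 and 14.02 at -10 min (0.33 ± 0.15, adjusted p = 0.077, limma, or 0.17 without that array).

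The tunnel and its rim, where the new chain meets targeting factors and chaperones, are built from RPL4, RPL17, RPL19, RPL22, RPL25, RPL26, RPL31, RPL35 and RPL39. Of their 15 measured genes, 10 rose at 7 min and 14 at 24 min, with medians of 0.65 and 0.84. These counts were 10 and 13 without the -10 min array of BY012, with medians of 0.39 and 0.62, and without BY003 they were 3 and 9. The genes of this group ranged widely: at 7 min from 0.18 ± 0.14 for RPL39 (0.06 without that array) to 2.13 ± 0.18 for RPL22B. RPL4B, 1 of the pair for a protein that lines the tunnel, was at 13.90, 13.93 and 14.05 at 24 min, against 12.98, 12.86 and 12.26 at -10 min (1.26 ± 0.19, or 1.04 without the -10 min array of BY012). RPL17B stood at 14.11, 14.12 and 13.98 at 24 min, against 13.04, 12.91 and 11.77 at -10 min. Neither overlapped between the times. RPL31B, whose protein lies beside the site of a chaperone pair at the exit, had 13.94, 13.86 and 13.93 at 7 min, against 13.32, 12.96 and 12.68 at -10 min (0.92 ± 0.17). RPL25, whose protein docks the signal recognition particle, changed by 0.24 ± 0.14 at 7 min (adjusted p = 0.157, limma, or 0.13 without that array) and rose by 0.36 ± 0.14 at 24 min, and without the -10 min array of BY012 that call was lost (0.25).

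RPL22B had the clearest rise of all members. Its protein lies at the outer rim of the tunnel exit and is not essential for growth. The log2 values in BY003, BY008 and BY012 were 11.22, 11.25 and 10.60 at -10 min, 13.17, 13.10 and 13.21 at 7 min and 13.08, 13.22 and 13.08 at 24 min. All 6 later arrays were nearly level, and the lowest of them was well above the highest at -10 min. The change was 4.38-fold at 7 min (adjusted p = 2.98e-05, limma) and 2.10 ± 0.18 on the log2 scale at 24 min (adjusted p = 1.03e-05). Without the -10 min array of BY012 it was 1.92 at 7 min, and the gene passed the test in every alternative. Its partner RPL22A rose by 0.77 ± 0.27 at 7 min and 1.00 ± 0.27 at 24 min, or 0.39 and 0.62 without that array.

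A last group joins late or faces the small subunit: RPL24, RPL29, RPL40, RPL41 and RPL42. RPL40 is made as a fusion with ubiquitin, and RPL41 is a very short basic peptide at the interface of the subunits. Of 7 measured genes, 2 rose at 7 min (RPL24B and RPL40B) and 6 at 24 min, with medians of 0.43 and 0.64, or 0.14 and 0.43 without the -10 min array of BY012. Without BY003 the counts were 0 and 4. RPL24B was at 14.46, 14.48 and 14.42 at 24 min, against 13.88, 13.91 and 13.43 at -10 min (0.71 ± 0.15). RPL40A had 14.50, 14.51 and 14.55 at 24 min, against 14.41, 14.39 and 14.13 at -10 min. The groups of RPL40A did not overlap, but its change of 0.21 ± 0.13 did not pass the test (adjusted p = 0.159, limma) and was 0.12 without the -10 min array of BY012. The probe set of RPL41A, which may read several transcripts, had 6.78, 7.15 and 4.40 at -10 min, 5.96, 7.60 and 6.48 at 7 min and 8.31, 8.59 and 8.76 at 24 min. The 24 min arrays were above all others, with a change of 2.44 ± 0.66 (adjusted p = 0.00878, limma), or 1.59 without the -10 min array of BY012, while at 7 min the values overlapped with -10 min.

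The other 39 members belong to none of these groups, and 22 of them rose at 7 min and 34 at 24 min (18 and 33 without the -10 min array of BY012, and 5 and 19 without BY003). RPL13A and RPL9A led them. RPL13A stood at 13.83, 13.54 and 13.85 at 7 min, against 12.43, 12.31 and 11.00 at -10 min (adjusted p = 0.00164, limma), and its change was 1.37 without the -10 min array of BY012. RPL9A was at 13.66, 13.50 and 13.75 at 7 min, against 12.53, 12.55 and 10.60 at -10 min (adjusted p = 0.00965, limma), and its change was 1.09 without that array. Both were far above their -10 min values in each experiment, and both passed the test in every alternative. RPL6B was at 13.92, 13.78 and 14.02 at 7 min, against 12.96, 13.10 and 12.42 at -10 min. RPL28, known as the site of resistance to cycloheximide, and RPL30, known to bind its own transcript, showed small changes that did not pass the test at 24 min (0.23 ± 0.14 and 0.26 ± 0.13, or 0.10 and 0.16 without the -10 min array of BY012).

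With all arrays, RPL15B was the only member with a negative change at 7 min (-0.03 ± 0.23, adjusted p = 0.923, limma). Its sign turned with the scaling, to 0.17 with array medians subtracted, while the change was -0.19 without the -10 min array of BY012. With that array left out, 73 members were above 0, and the lowest was RPL41A at -0.29. For RPL15B all arrays are given next. Its values were 12.36, 12.08 and 11.74 at -10 min, 12.10, 11.90 and 12.10 at 7 min and 12.52, 11.86 and 12.66 at 24 min. The times overlapped throughout, and BY008 was lower than its own -10 min array at both times. RPL15A, the other gene for this protein of the subunit's core, rose at 24 min (0.63 ± 0.20, or 0.38 without that array), when it was at 14.24, 14.13 and 14.26, against 13.90, 13.75 and 13.07 at -10 min.

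Of the 75 members, 11 are single-copy genes and 64 belong to an A and B pair. Among single-copy genes 3 rose at 7 min and 8 at 24 min, with medians of 0.35 and 0.51. Among genes of pairs 36 rose at 7 min and 58 at 24 min, with medians of 0.53 and 0.72. The medians without the -10 min array of BY012 were 0.15 and 0.30 for single-copy genes and 0.30 and 0.49 for genes of pairs, and without BY003 the counts were 0 and 2 against 9 and 33. All single-copy genes but RPL38 started above the median -10 min value of the members, 13.62. Members that started at or above that value changed by medians of 0.35 and 0.51 as well. The difference between these classes was not tested, nor was the share of the starting value in it.

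In BY008 the rise could be followed over 7 times. The median difference of the 75 members from the -10 min array of this experiment was 0.09 at 3 min, 0.26 at 7 min, 0.31 at 10 min, 0.40 at 14 min, 0.45 at 24 min, 0.38 at 56 min and 0.46 at 120 min. Already at 3 min 61 members were above 0, where 45.2% of all genes were, and from 7 min on between 73 and 75 were. The rise was gradual up to 24 min for the typical member. At 3 min only RPL22B was higher by at least 1, and the number of such members was 2 at 7 min, 4 at 10 min, 5 at 14 min, 8 at 24 min, 6 at 56 min and 6 at 120 min. Of all genes, 4.44% were higher by at least 1 at 3 min, 8.81% at 7 min, 10.5% at 10 min, 11.3% at 14 min, 13.3% at 24 min, 12.4% at 56 min and 8.53% at 120 min, where the share of the members lay between 1.33% at 3 min and 10.7% at 24 min. The highest value of the course fell at 24 min for 29 members and at 120 min for 35. The median at 3 min depended on the reference and the scaling: it was 0.28 against the mean of all 3 -10 min arrays, 0.07 against that of BY003 and BY008, and 0.01 with array medians subtracted. The later medians depended on them too. Against the mean of all 3 -10 min arrays they were 0.52 at 10 min, 0.59 at 14 min, 0.60 at 56 min and 0.67 at 120 min, and with array medians subtracted 0.53, 0.60, 0.47 and 0.57 at these times.

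**Figure D3:**
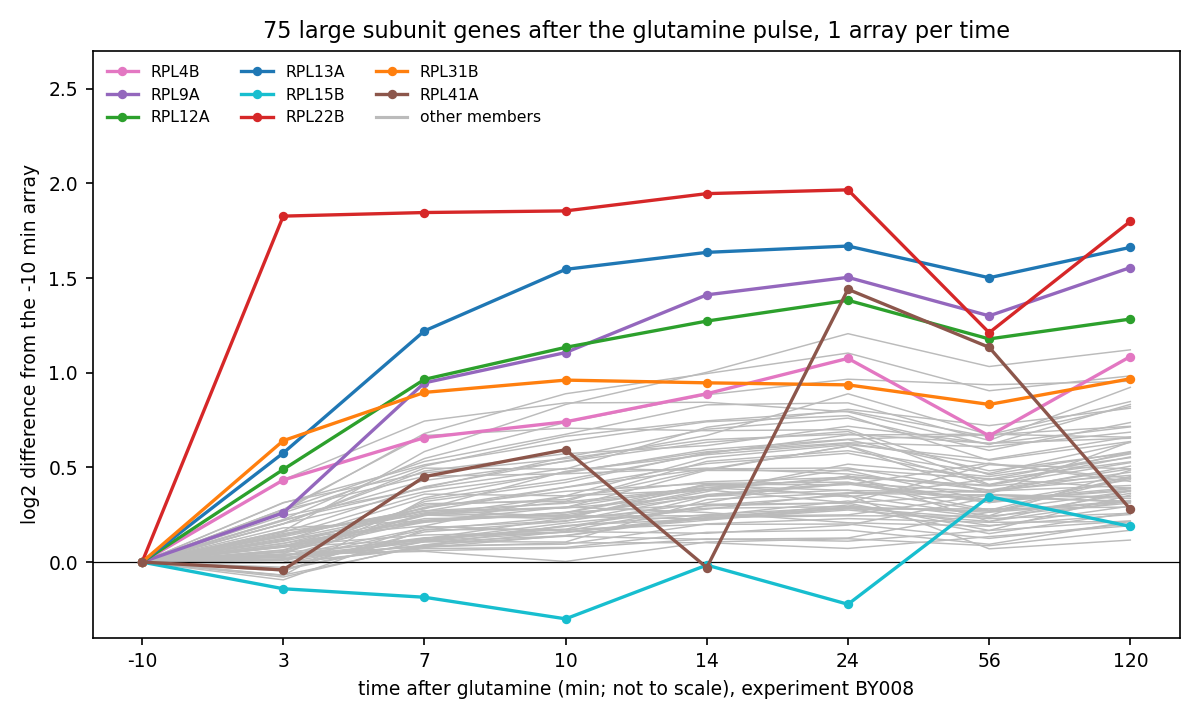
Log2 difference from the -10 min array of BY008 over its 7 times from 3 to 120 min, 1 array per time and no replicates, with 8 named members in colour, the others in grey and the time axis not to scale. RPL22B is at 1.83 at 3 min, while the median member reaches 0.09 there and 0.45 at 24 min.

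The members differed in how early they moved in BY008. RPL22B was higher by 1.83 at 3 min, rank 85 of 5449 genes, by 1.85 at 7 min and by 1.97 at 24 min. RPL31B was next at 3 min with 0.64 and stood at 0.90 at 7 min and 0.94 at 24 min. These genes, with RPL27B (0.43 at 3 min, 0.74 at 7 min and 0.79 at 24 min), were near their 24 min level at 7 min. So were others, such as RPL8A (0.67 at 7 min and 0.70 at 24 min), RPL43B (0.45 and 0.46) and RPL3 (0.27 and 0.27). RPL13A was slower, with 0.58 at 3 min, 1.22 at 7 min and 1.67 at 24 min. RPL9A had 0.26 at 3 min, 0.95 at 7 min and 1.50 at 24 min, and RPL17B had 0.16, 0.58 and 1.21 at these times. RPL41A was not above 0 at 3 min and 14 min, and was at 1.44 at 24 min and 0.28 at 120 min, in a probe set that was dim throughout.

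At 56 min the course dipped. In BY008, 61 of the 75 members were lower at 56 than at 24 min, by a median of 0.09, where 44.2% of all genes were lower and the median gene was higher by 0.07. From 56 to 120 min the median member was higher by 0.09, and 11 were lower. RPL22B had the largest dip, with a difference of -0.75 between 56 and 24 min and of 0.59 between 120 and 56 min. RPL4B followed with -0.41 and 0.42. RPL15B went the other way and was higher at 56 than at 24 min by 0.57. With 1 array per time, none of these differences has a replicate check.

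For 28 A and B pairs both genes had a probe set whose name does not mark it as able to read several transcripts. Whether each of these reads 1 gene of its pair alone was not checked against sequence. The difference A minus B was formed within each array, so a shift common to both probe sets drops out. Its change after the pulse shows which probe set moved up more, and A and B below stand for these probe sets. An unequal response of the paired probe sets, or a reading of both genes by 1 of them, would enter the change too and was not tested. It can still depend on the -10 min array of BY012. For RPL26, A minus B was -0.13, -0.09 and 0.73 at -10 min in BY003, BY008 and BY012. No test was made, since an exact permutation test of 3 against 3 arrays cannot go below 0.1. In 19 pairs at 7 min and 21 at 24 min the change had the same sign in all 3 experiments. In 19 pairs it had it at both times, with A moving up more in 11 and B in 8. The probe set with the lower -10 min value moved up more in 24 of the 28 pairs at 7 min and in 26 at 24 min. Without BY012 these counts were 24 and 25. The -10 min value enters both the start and the change, and the cause was not tested. The median size of the change was 0.29 at 7 min and 0.31 at 24 min. Over BY003 and BY008 alone, the sign was shared in 24 pairs at 7 min and 28 at 24 min.

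Both genes of most pairs went up, and the pairs differed in how far the difference A minus B changed. In 24 of the 28 pairs the A and B values were closer together at 24 than at -10 min (22 without BY012). The median size of A minus B was 0.58 at -10 min and 0.21 at 24 min. For RPL22 the difference A minus B was 1.04, 0.99 and 1.00 at 7 min in BY003, BY008 and BY012, against 2.61, 2.46 and 2.03 at -10 min. Its change of -1.36 ± 0.29 (SD, n = 3 experiments) was negative in each of them, so B moved up more. For RPL13 the difference was -0.15, -0.36 and -0.16 at 7 min, against -1.21, -1.41 and -2.18 at -10 min, and A moved up more (1.37 ± 0.55). For RPL9 it was 0.24, 0.05 and 0.23 at 7 min, against -0.44, -0.70 and -1.86 at -10 min, and A moved up more (1.17 ± 0.79). The changes of RPL13 and RPL9 were much larger in BY012 than in the other experiments. They were 1.06, 1.05 and 2.01 for RPL13 and 0.68, 0.76 and 2.09 for RPL9.

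Several smaller changes were close in all 3 experiments. The change at 7 min was -0.63, -0.79 and -0.68 for RPL31, where B moved up more, and 0.50, 0.72 and 0.89 for RPL12, where A did. For RPL33 it was -0.44, -0.40 and -0.45, and for RPL6 -0.52, -0.34 and -0.54, so B moved up more in both pairs. These changes kept their sign at 24 min, with means of -0.62 ± 0.07 for RPL31, 0.72 ± 0.17 for RPL12, -0.48 ± 0.06 for RPL33 and -0.50 ± 0.08 for RPL6. At the other end, the larger of the mean changes of A minus B at 7 and 24 min was smallest for the pairs RPL21, RPL37, RPL24 and RPL26. For RPL37 the change was 0.09 ± 0.05 at 7 min and 0.05 ± 0.04 at 24 min. For RPL26 it was 0.03 ± 0.50 and -0.06 ± 0.54, with signs that differed between experiments. Its small mean at 7 min came from 0.44, 0.17 and -0.52 in BY003, BY008 and BY012. The signs differed between experiments for RPL21 and RPL24 too.

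**Figure D4:**
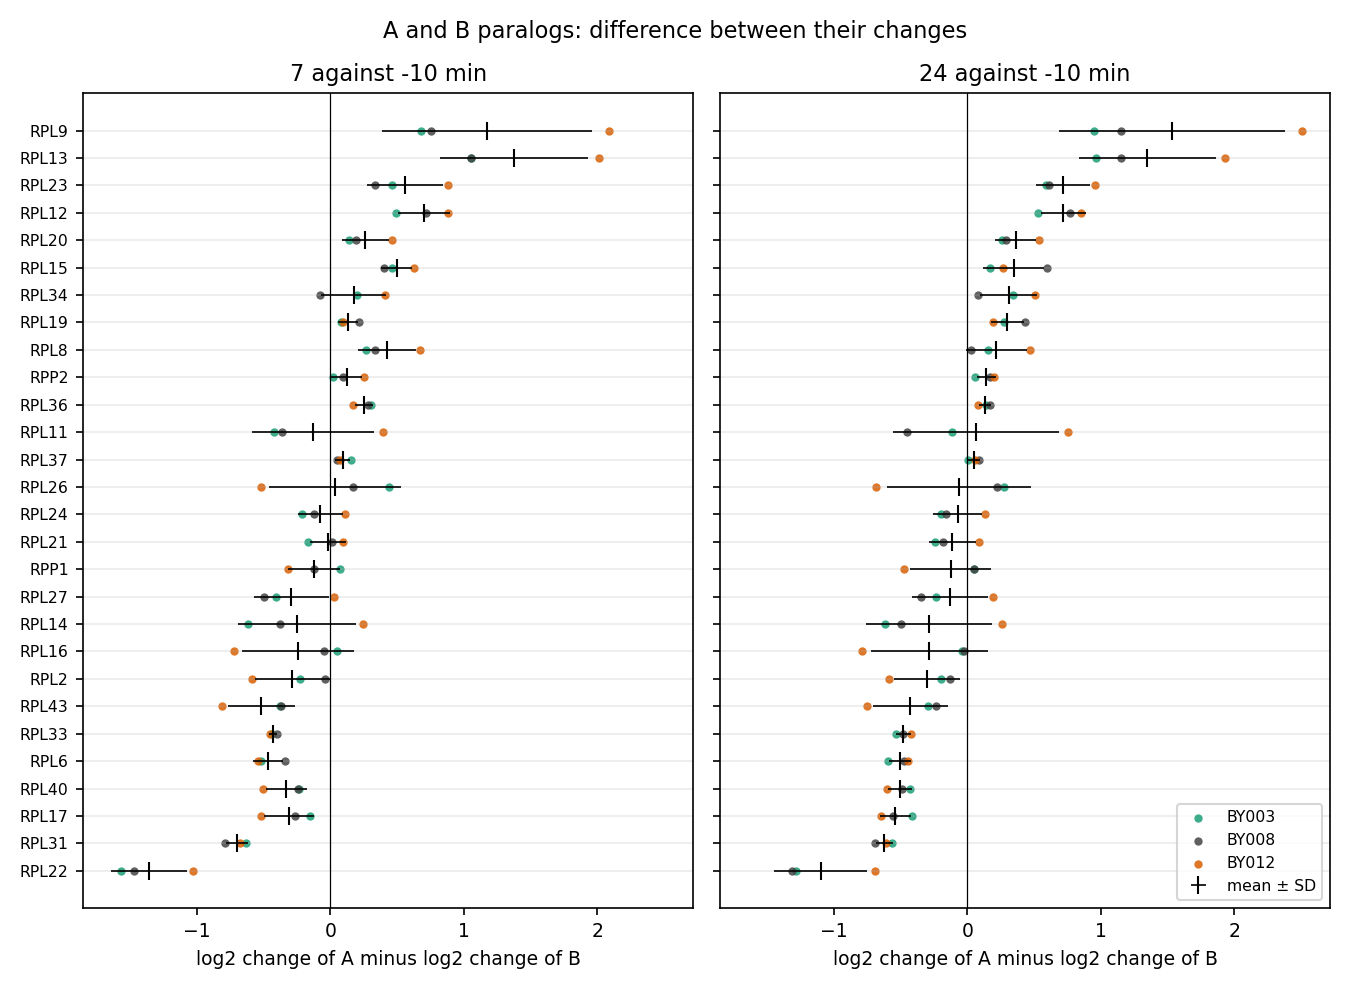
Change of the within-array difference A minus B against -10 min for the 28 pairs, at 7 and 24 min, with 1 point per experiment and the mean ± SD of the 3 as a cross, positive where A moved up more. RPL13 and RPL9 lie at the positive end and RPL22 at the negative end, and all 3 points of each lie on 1 side of 0.

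For 7 members the arrays carry 2 probe sets, 1 marked by its name as able to read several transcripts and 1 without that mark. The unmarked probe set is called that for 1 transcript. The brighter one was used above, and they did not always give the same change. For RPL18B the probe set for 1 transcript stood at 12.91, 13.25 and 12.77 at 24 min, against 11.29, 11.80 and 10.91 at -10 min, a change of 1.64 ± 0.22, while the other one changed by 0.51 ± 0.15. It was also higher at 24 than at 7 min, by 0.73 ± 0.22 (adjusted p = 0.0326, limma). For RPL14B the changes at 24 min were 1.06 ± 0.17 (adjusted p = 0.000495, limma) for the probe set of 1 transcript and 0.33 ± 0.14 for the other (0.20 without the -10 min array of BY012), so its failure to pass the test above holds for the brighter probe set alone. For RPL2A, RPL8A, RPL11B, RPL20B and RPL21A both probe sets changed by similar amounts, between 0.50 and 1.04 at 24 min, or 0.31 and 0.71 without that array. Restricted to probe sets of 1 transcript, 69 members were measured, and 41 rose at 7 min and 63 at 24 min.

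Dedicated partners carry single ribosomal proteins to the nucleus or help the finished subunit to mature. All 12 on the list rose at 7 min and at 24 min, where 16.7% and 24.1% of all genes rose. They did so without the -10 min array of BY012 too, and 11 rose at 7 min without BY012. With all arrays the medians were 1.79 and 2.05, against -0.33 for all genes at each time. SYO1, which brings RPL5 and RPL11 into the nucleus, rose by 3.76 ± 0.22 at 7 min, or 3.78 without the -10 min array of BY012. RPL5 itself rose by 0.64 ± 0.23, and by less without that array, as given above. RRB1, the chaperone of RPL3, rose by 3.22 ± 0.26, ACL4, that of RPL4, by 1.66 ± 0.24, and SQT1, that of RPL10, by 1.92 ± 0.18. The export and maturation factors ARX1 (3.62 ± 0.22), REI1 (3.07 ± 0.26) and NMD3 (2.69 ± 0.28) were of the same order. The importin gene KAP123 rose least, by 0.87 ± 0.19. The list was chosen with earlier results of these data known, and in BY003 its median was 1.61, against 1.90 in BY008 and 2.13 in BY012.

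Of 12 transcripts on the list of regulators, 3 rose and 4 fell at 7 min, where 16.7% of all genes rose and 35.7% fell. At 24 min 3 rose and 3 fell, where the shares of all genes were 24.1% and 44.9%, with the same counts without the -10 min array of BY012. Without BY003, 2 rose and 1 fell at 7 min. With array medians subtracted 3 rose and 3 fell at 7 min, and 5 rose and 2 fell at 24 min. TOD6, a repressor of ribosome synthesis genes, rose at both times, by 4.30 on the log2 scale at 24 min. At 7 min IFH1, a coactivator of the ribosomal protein genes, rose by 2.26, and HMO1, which binds many of their promoters, by 0.51. CRF1, described as a corepressor that competes with Ifh1, fell by 1.23 at 7 min and by 2.84 at 24 min, and the kinase gene YAK1 fell by 1.58 at 7 min. STB3, a repressor that binds a promoter element of ribosome synthesis genes, fell by 1.08 at 7 min, and ABF1, a general promoter-binding factor, by 0.33. The median change of all genes at 7 min was -0.33, so ABF1 moved no further than the median gene. FHL1, RAP1, SFP1, SCH9 and DOT6 passed the test at neither time.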

How the data were processed

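Total RNA was labelled and hybridised to 14 Affymetrix yeast arrays. The deposited values are linear intensities per probe set. Per the submitters' processing notes, R 2.10.0, affy and RMA were used, in an order and with settings not given in the sources used here. The intensities were turned into log2 here and not scaled further. Of 10928 probe sets, 5498 are listed for an *S. cerevisiae* gene in the platform annotation and 3470 for none. The brightest probe set of each gene was kept, which left 5449 genes. Of the 82 probe sets of members, 13 may read several transcripts, and RPL1B, RPL4A, RPL7A, RPL35A, RPL41A and RPL42B have only such a probe set.

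All 14 arrays entered 1 linear model with a mean for each time, fitted with limma 3.58.1 in R 4.3.3 (6 residual and 3.31 prior degrees of freedom), and p-values were adjusted over all 5449 genes by the Benjamini-Hochberg method, with a threshold of 0.05. Summaries used pandas 2.3.3 and figures matplotlib 3.10.9 in Python 3.11.15. Times with 1 array were described as differences without a test. The fit was tested on simulated data. The number of arrays limits the precision.

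The members and the lists were chosen with earlier results of these data known. The naming rule takes fixed members of each role, the 6 largest and 6 smallest changes of each comparison, the 8 pairs with the largest and the 4 with the smallest difference of change, and up to 4 called genes of each other list. Other members and list genes in the text, such as RPL15A, RPL18B, RPL20B, RPL27B, RPL38, SQT1, ACL4, NMD3, KAP123, HMO1, STB3 and ABF1, were named after their values were seen.

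The experiment code in the labels pairs the arrays of 1 experiment. Deviations of all genes from the time means correlated between times with r from -0.05 to 0.21 in BY003, 0.35 to 0.63 in BY008 and 0.08 to 0.56 in BY012. Whether 1 culture was sampled at all times is not given in the sources used here. Alternatives were scaling, the block, the choice of probe sets, filters, thresholds, and leaving out arrays or experiments, of which the restriction to probe sets for 1 transcript and, for pairs and times with 1 array, leaving out the -10 min array of BY012 were chosen after seeing the data. Promoter and protein sequences were not used here.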

Additional observations from a re-analysis of the deposited data

How the results depend on the processing

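No member that passed the test reversed its direction under any alternative. Of the 75 members, 39 rose at 7 min, and the count was 65 with array medians subtracted, 12 at an adjusted p under 0.01 and between 9 and 28 when 1 experiment was left out. At 24 min it was 66, and it was 36 at an adjusted p under 0.01 and between 35 and 52 when 1 experiment was left out. For 24 against 7 min it was 1, and it was 2 with quantile normalization, 2 with only probe sets for 1 transcript (chosen after seeing the data), 0 with unlisted probe sets added, 0 at an adjusted p under 0.01, 8 without the -10 min array of BY012 and between 0 and 2 when 1 experiment was left out. With the experiment as a replicate block, 40 members rose at 7 min, 66 at 24 min and 2 for 24 against 7 min, and the block ended no call. The median change from 7 to 24 min was 0.25 with array medians subtracted, and its excess over all genes, 0.18, was 0.030 with quantile normalization, 0.15 without the dimmest 0.25 of genes and 0.12 with unlisted probe sets added. The causes were not tested. Members with a higher -10 min value tended to change less. Over the 75 members the Spearman correlation of start and change was -0.79 at 7 min and -0.86 at 24 min, or -0.65 and -0.80 without BY012. At 7 min 30 of the 37 dimmer and 9 of the 38 brighter members rose, with medians of 0.71 and 0.35. At 24 min 35 and 31 rose, with medians of 0.95 and 0.51. The -10 min value enters both start and change. How far the top of the intensity range limits the rises was not tested.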

Other observations

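Genes of the small subunit rose as well. Of 52 measured genes for proteins of the cytosolic small subunit, 27 rose at 7 min and 46 at 24 min, where 16.7% and 24.1% of all genes rose, with median log2 changes of 0.45 and 0.63, against 0.50 and 0.67 for the large subunit genes. On the -10 min array of BY012, 49 of the 52 were below both other -10 min arrays, with a median difference of -0.57 from their mean, and without that array 22 rose at 7 min and 40 at 24 min, with medians of 0.27 and 0.45. Without BY003 the counts were 10 and 23.

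Of 34 measured genes for proteins of the mitochondrial large subunit, 1 rose and 18 fell at 7 min, where 16.7% of all genes rose and 35.7% fell. Their median change was -0.43, or -0.23 with array medians subtracted, against -0.33 for all genes, or -0.14 with that scaling. For 24 against 7 min, 20 rose and 0 fell, where 13.2% of all genes rose and 20.2% fell, with a median change of 0.47. At 24 min 6 were higher and 5 lower than at -10 min, where 24.1% of all genes were higher and 44.9% lower. The counts were 12 and 2 both with array medians subtracted and with quantile normalization. The median change of -0.04 turned positive with array medians subtracted (0.24) and with quantile normalization (0.25). Without BY003, 6 fell at 7 min and none passed the test for 24 against 7 min.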
